A study of Mus musculus with 8 samples.

Results

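The 9 genes described here carry the brain's response to corticosterone, the main glucocorticoid of the mouse. They are the receptors Nr3c1 and Nr3c2, the enzyme gene Hsd11b1, and Sgk1, Fkbp5, Tsc22d3, Pdk4, Nfkbia and Zbtb16, which glucocorticoids induce in many tissues. They were chosen by name, and all 9 were found among the 19505 genes of the array, each with 1 probe set. All 9 also belonged to the 14628 genes tested, those left after the dimmest 25% were set aside. The study compared hippocampi of 4 mice whose memory was impaired with those of 4 mice whose memory was intact, 1 array per mouse, to find expression that goes with memory loss. All 8 mice were of B6.Cg-Tg(APPswe)E1-2Dbo/J, which carries a transgene of mutant amyloid precursor protein, and were between 18 and 20 months old. All 8 had gone through the Morris water maze, a swimming test of spatial memory, and had been killed by cervical dislocation. There was thus no group without the transgene and none that had not swum. The sources used here do not give the promoter of the transgene, the sex of the mice, the hour of sampling or the time between the maze and sampling.

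Corticosterone is released by the adrenal gland in daily pulses and under stress. In the hippocampus it binds the mineralocorticoid receptor, the product of Nr3c2, with high affinity, and the glucocorticoid receptor, the product of Nr3c1, with lower affinity, so that the latter fills mainly at the daily peak and during stress. The bound receptors enter the nucleus and act on genes either through palindromic response elements or by contact with other factors such as NF-kB. The hippocampus is known as a site rich in both receptors and as part of the feedback on the stress axis.

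The sequence just before 1 transcription start of Sgk1 shows what such a response element looks like and where it lay. Windows of 250 bases before each RefSeq start (assembly GRCm38.p6) were searched on both strands for the palindrome AGAACA, any 3 bases, then TGTTCT, for its arm TGTTCT alone, and for the kappaB consensus, which NF-kB binds. Windows were searched for 7 of the 9 members, 14 windows in all. Nr3c1 and Zbtb16 were not used here. The palindrome stood in 1 of these windows, at Sgk1, and in 3 of the 32817 windows of all genes (0.00914%), the others at Acnat2 and Gm35041. Sgk1 is shown for that palindrome, Tsc22d3 for the arm alone and Nfkbia for the kappaB match. Capitals mark the matches, each sequence runs 5′ to 3′ on the gene's strand, and the last base is the one before the start.
Sgk1 (plus strand, chr10:21993640-21993889): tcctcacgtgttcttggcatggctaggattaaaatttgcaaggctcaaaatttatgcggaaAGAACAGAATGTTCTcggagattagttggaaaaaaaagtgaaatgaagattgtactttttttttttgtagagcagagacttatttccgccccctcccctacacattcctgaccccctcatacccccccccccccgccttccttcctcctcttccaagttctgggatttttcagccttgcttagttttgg
Tsc22d3 (minus strand, chrX:140600523-140600772): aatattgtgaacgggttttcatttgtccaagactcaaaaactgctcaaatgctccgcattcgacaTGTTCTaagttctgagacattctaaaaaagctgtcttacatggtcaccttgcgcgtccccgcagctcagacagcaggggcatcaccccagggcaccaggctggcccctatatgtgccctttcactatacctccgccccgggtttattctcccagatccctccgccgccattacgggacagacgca
Nfkbia (minus strand, chr12:55492648-55492897): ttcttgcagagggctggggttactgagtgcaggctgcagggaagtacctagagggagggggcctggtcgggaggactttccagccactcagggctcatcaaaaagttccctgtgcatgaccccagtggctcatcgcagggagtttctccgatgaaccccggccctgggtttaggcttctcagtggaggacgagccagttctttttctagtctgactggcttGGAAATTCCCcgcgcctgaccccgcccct

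The palindrome of Sgk1, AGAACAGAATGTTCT, began at position -189 of that start, where -1 is the last base before it. A further TGTTCT nearer the 5′ end of that window is left in lower case. This start is 1 of 6 that RefSeq gives for Sgk1, and the probe set was not assigned to any of them here. The arm of Tsc22d3 began at position -185. Arms alone are common, since 16.1% of all windows held TGTTCT on either strand, windows with the whole palindrome included. The match of Nfkbia, GGAAATTCCC, began at position -29, and 7.25% of all windows held the kappaB consensus. The arm stood in 4 of the 14 windows of the members, 3 of them at Sgk1 and 1 at Tsc22d3. Of the other genes known to be induced by glucocorticoids, described below, 24 were searched, with 30 windows. The palindrome stood in 0 of those 30 windows and the arm in 4, counting overlapping windows of the same gene that hold the same arms. The windows of Pdk4, Fkbp5, Nr3c2 and Hsd11b1 held none of the motifs. These are matches of letters in short windows, and no binding was measured.

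None of the 9 members differed between the groups at an adjusted p under 0.05. Expression is given on the log2 scale of robust multi-array averaging (RMA), on which a difference of 1 is a doubling, and differences are impaired minus intact, tested with limma over all genes with Benjamini-Hochberg adjustment. Of all genes tested 0% passed, and 4.68% had an unadjusted p under 0.05, which among the members was 1 gene, Sgk1. By direction, 2.17% of all genes had such a p with a higher mean in the impaired group, as Sgk1 had, and 2.52% with a lower one. The largest differences were those of Sgk1 (0.45), Nfkbia (0.33), Pdk4 (0.31) and Tsc22d3 (0.30), all with higher means in the impaired group, while both receptors had lower means there. For none of the 9 did the groups separate, against 2.58% of all genes tested whose groups did not overlap, and 1.12% with every impaired mouse the higher. In bulk tissue, fewer cells of a type and less RNA per cell cannot be told apart.

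**Figure D1:**
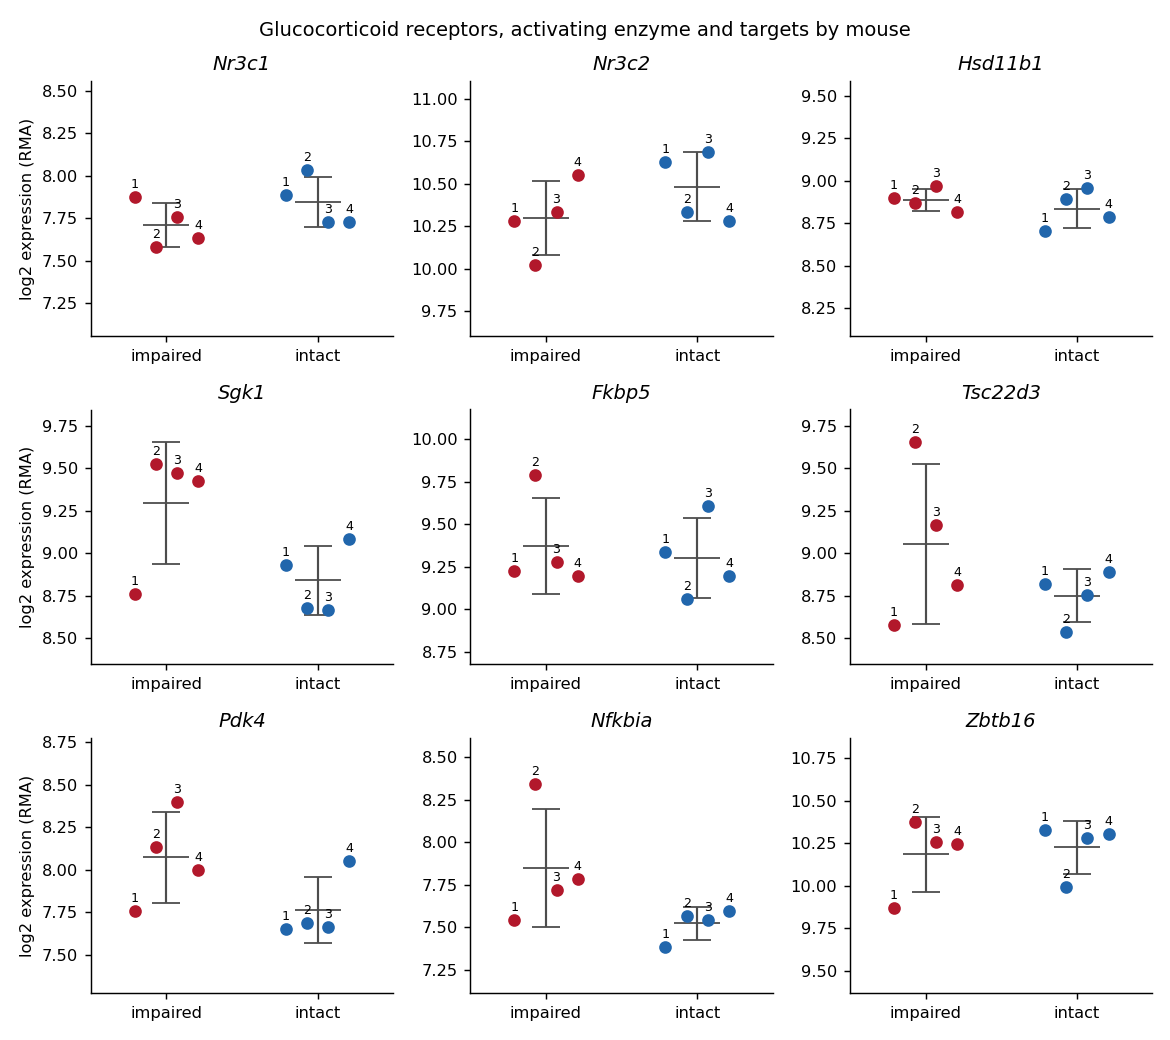
Log2 expression (vertical axes, all of the same width) of the 9 members in 4 impaired and 4 intact mice, with points numbered by mouse and bars for mean and SD. Impaired mouse 1 lies among the intact mice for Sgk1 at 8.76. Impaired mouse 2 is the highest of all mice for Sgk1, Fkbp5, Tsc22d3, Nfkbia and Zbtb16.

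Nr3c1, the glucocorticoid receptor itself, stood at 7.88, 7.58, 7.76 and 7.63 in impaired mice 1 to 4 and at 7.89, 8.03, 7.73 and 7.73 in intact mice 1 to 4. The groups overlapped, with impaired mouse 2 lowest and intact mouse 2 highest. The difference was -0.13 with a standard error of 0.10, and its 95% interval ran from -0.35 to 0.089 (limma, adjusted p = 0.961). Without intact mouse 2 it was -0.069.

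Nr3c2, the mineralocorticoid receptor, stood at 10.28, 10.02, 10.34 and 10.55 in the impaired mice and at 10.63, 10.33, 10.69 and 10.28 in the intact mice. Impaired mouse 2 lay below all intact mice, and impaired mice 3 and 4 lay inside the intact range. The difference was -0.18, with a standard error of 0.13 and a 95% interval of -0.47 to 0.11 (limma, adjusted p = 0.961). Leaving out impaired mouse 2 gave -0.091.

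The balance of the receptors is a common measure of stress regulation in the hippocampus, so the log2 value of Nr3c2 minus that of Nr3c1 was compared within each mouse. The size of this value depends on the probes and is not read here, only its shift between groups. It was 2.41, 2.44, 2.58 and 2.92 in the impaired mice and 2.74, 2.30, 2.96 and 2.55 in the intact mice, which span nearly the same range. The means, 2.59 ± 0.23 (SD, n = 4) and 2.64 ± 0.28 (SD, n = 4), differed by -0.051 (two-sided exact permutation test over 70 relabellings, p = 0.771, where the smallest possible p is 0.0286). Leaving out a mouse moved the shift between -0.16, without intact mouse 2, and 0.056, without intact mouse 3. Its sign thus depended on which mice were kept.

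Hsd11b1 encodes the enzyme that regenerates corticosterone from its inert keto form inside cells. It was the steadiest of the 9 genes, at 8.90, 8.87, 8.97 and 8.82 in the impaired mice and 8.70, 8.89, 8.96 and 8.79 in the intact mice. Impaired mouse 3 was highest and intact mouse 1 lowest, with the other mice of both groups intermixed. The difference was 0.051 (standard error 0.084, 95% interval -0.13 to 0.24; limma, adjusted p = 0.981). It was 0.0074 without intact mouse 1 and 0.092 without intact mouse 3.

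Sgk1 encodes a serine/threonine kinase that glucocorticoids induce within hours and that acts on ion channels and on FOXO factors. Its values were 8.76, 9.52, 9.48 and 9.43 in impaired mice 1 to 4 and 8.93, 8.68, 8.67 and 9.08 in intact mice 1 to 4. Impaired mice 2, 3 and 4 were above every intact mouse, and impaired mouse 1 lay inside the intact range. The means, 9.30 ± 0.36 (SD, n = 4) and 8.84 ± 0.20 (SD, n = 4), correspond to a 1.37-fold higher level in the impaired group. The difference of 0.45 had a standard error of 0.17 and a 95% interval of 0.082 to 0.83 (limma, unadjusted p = 0.0213, adjusted p = 0.961). By unadjusted p Sgk1 ranked 266 of 14628 genes. The difference was 0.38 to 0.63 with a mouse left out, highest without impaired mouse 1, and no such fit passed the adjustment.

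Pdk4 encodes a kinase that shuts off pyruvate dehydrogenase and so spares glucose. It stood at 7.76, 8.13, 8.40 and 7.997 in the impaired mice and at 7.65, 7.69, 7.66 and 8.05 in the intact mice. Each impaired mouse was above intact mice 1 to 3, while intact mouse 4 was above impaired mice 1 and 4. The difference was 0.31 (standard error 0.14, 95% interval -0.0016 to 0.62; limma, adjusted p = 0.961), and 0.20 without impaired mouse 3.

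Nfkbia encodes the inhibitor that holds NF-kB in the cytoplasm and is induced by glucocorticoids as well as by NF-kB itself. Its values were 7.55, 8.35, 7.72 and 7.78 in the impaired mice and 7.38, 7.57, 7.54 and 7.60 in the intact mice. Impaired mouse 2 was far above the rest, and impaired mouse 1 lay among the intact mice, whose SD was only 0.096. The difference was 0.33 (standard error 0.15, 95% interval -0.0061 to 0.66; limma, adjusted p = 0.961), and 0.16 without impaired mouse 2.

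Tsc22d3 encodes the glucocorticoid-induced leucine zipper protein, which restrains inflammatory transcription factors. It had the widest span of the members, with 8.58, 9.66, 9.17 and 8.81 in the impaired mice and 8.82, 8.54, 8.76 and 8.89 in the intact mice. Impaired mice 2 and 3 were above all intact mice, and impaired mice 1 and 4 were not. The difference was 0.30 (standard error 0.20, 95% interval -0.13 to 0.74; limma, adjusted p = 0.961). It was 0.10 without impaired mouse 2 and 0.46 without impaired mouse 1.

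Fkbp5 and Zbtb16, both usually counted among sensitive glucocorticoid targets, had nearly equal group means. Fkbp5, whose product is a co-chaperone that lowers the receptor's affinity for hormone, stood at 9.22, 9.79, 9.28 and 9.20 in the impaired mice and at 9.34, 9.06, 9.61 and 9.20 in the intact mice. Impaired mouse 2 and intact mouse 3 had the highest values, and the other 6 mice, of both groups, lay at or below 9.34. The difference was 0.072 (standard error 0.15, 95% interval -0.27 to 0.41; limma, adjusted p = 0.990), and -0.067 without impaired mouse 2. Zbtb16, a zinc finger transcription factor, was 9.87, 10.37, 10.26 and 10.25 in the impaired mice and 10.32, 9.99, 10.28 and 10.30 in the intact mice. Impaired mouse 1 and intact mouse 2 were low and the other 6 mice lay between 10.25 and 10.37. Its difference was -0.040 (standard error 0.12, 95% interval -0.31 to 0.23; limma, adjusted p = 0.991), and 0.067 without impaired mouse 1.

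**Figure D2:**
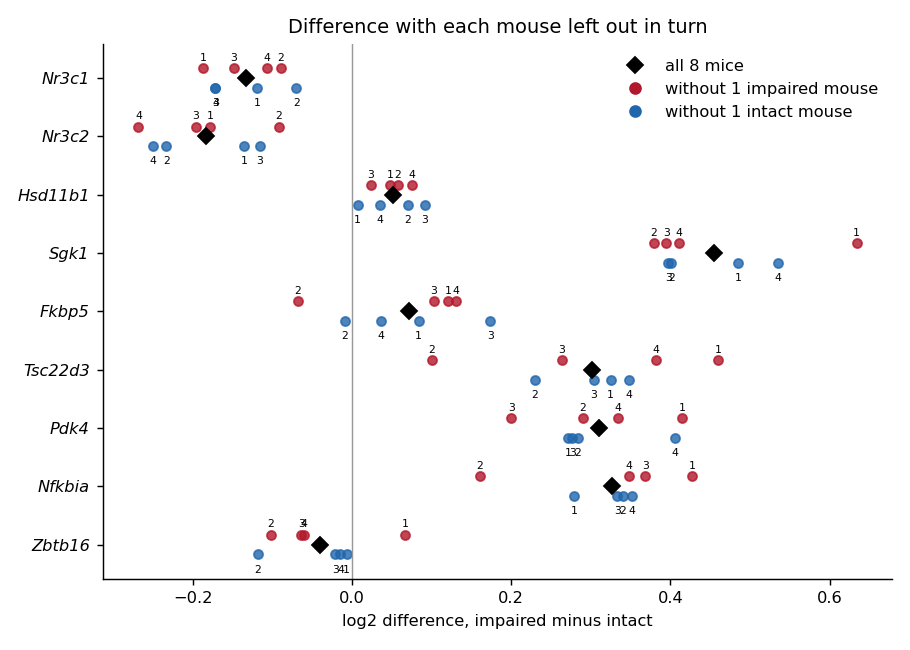
Log2 difference, impaired minus intact (horizontal axis), of each member with all 8 mice (diamonds) and with each impaired (red) or intact (blue) mouse left out, numbered by mouse. Sgk1, Tsc22d3, Pdk4 and Nfkbia stay above 0 throughout, and Fkbp5 and Zbtb16 cross it.

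Most members varied widely between mice of the same group. The SD within groups was set beside that of the 500 tested genes nearest in mean level. Tsc22d3, with an SD of 0.35, exceeded 98.6% of such genes, Sgk1 97.4%, Fkbp5 96.4%, Nfkbia 92.2%, Nr3c2 91.4%, Pdk4 90.2% and Zbtb16 89.2%. Nr3c1 exceeded 47.8% and Hsd11b1 22.6%. The 6 induced genes and Nr3c2 were thus more spread than most genes of like level, while the glucocorticoid receptor and the corticosterone-forming enzyme were not.

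The 6 induced members tended to be high or low in the same mice. In impaired mouse 2 all 6 were above their mean over the 8 mice, and in impaired mouse 1 and intact mouse 2 none was. Impaired mice 3 and 4 had 5 and 4 above the mean, and intact mice 1, 3 and 4 had 2, 2 and 3. The mean deviation of the 6 genes was 0.45 in impaired mouse 2, 0.20 in impaired mouse 3 and 0.058 in impaired mouse 4, but -0.23 in impaired mouse 1. In the intact mice it ran from -0.27, in intact mouse 2, to 0.0013, in intact mouse 4. Impaired mouse 1 was thus lower in these genes than 3 of the 4 intact mice.

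Correlations over the 8 mice were computed for all 36 pairs of members, with exact two-sided permutation tests. No pair passed adjustment over the 36 pairs, and 8 had an unadjusted p under 0.05. All 15 pairs among the 6 induced genes correlated positively, with r from 0.112 to 0.868, and all 15 stayed positive when values were centred within each group. How often other genes of these arrays correlate in this way was not tested. By Spearman's rho 14 were positive, all but Fkbp5 with Nfkbia (-0.071). Without the 2 mice farthest from the median of the first gene of each pair 12 were positive, and r was -0.277 for Sgk1 with Fkbp5, -0.266 for Fkbp5 with Nfkbia and -0.066 for Nfkbia with Zbtb16. Of the 36 pairs, 2 had an unadjusted p under 0.05 without those mice, and none passed adjustment. Sgk1 and Tsc22d3 had r = 0.793 (exact permutation p = 0.00270, adjusted p = 0.0952) and Spearman's rho = 0.857 (exact permutation p = 0.0107, adjusted p = 0.193). Sgk1 and Pdk4 had r = 0.868 (exact permutation p = 0.00794, adjusted p = 0.0952) and rho = 0.810 (exact permutation p = 0.0218, adjusted p = 0.196). Without impaired mice 2 and 3, the mice farthest from the median of Sgk1, r was 0.634 and 0.795 for these pairs. Sgk1 and Nfkbia had r = 0.720 (exact permutation p = 0.00647, adjusted p = 0.0952) and rho = 0.810 (exact permutation p = 0.0218, adjusted p = 0.196). Their r was 0.538 after centring within groups and 0.647 without impaired mice 2 and 3. For Tsc22d3 and Nfkbia r was 0.856 (exact permutation p = 0.0228, adjusted p = 0.192) and rho was 0.548 (exact permutation p = 0.171, adjusted p = 0.473). Without impaired mice 2 and 3 their r was 0.0971, so that this relation rested on those mice.

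Nr3c1 was mostly low where the induced genes were high. Its r with each of the 6 was negative, from -0.732 with Sgk1 (exact permutation p = 0.0412, adjusted p = 0.192; rho = -0.524, exact permutation p = 0.197, adjusted p = 0.506) to -0.575 with Pdk4, and it stayed negative for all 6 after centring within groups. Without impaired mouse 2 and intact mouse 2, the mice farthest from the median of Nr3c1, r was negative with 5 of the 6. It was -0.528 with Sgk1, -0.304 with Tsc22d3, -0.424 with Pdk4, -0.801 with Nfkbia and -0.418 with Zbtb16, but 0.034 with Fkbp5, so that the relation with Fkbp5 rested on those mice. Intact mouse 2, the highest in Nr3c1, was among the mice with the lowest induced genes, and impaired mouse 2, the lowest in Nr3c1, had the highest. Nr3c1 and Nr3c2 hardly varied together (r = 0.181, exact permutation p = 0.672, adjusted p = 0.825). Nr3c2 also had a negative r with Nfkbia (-0.694, exact permutation p = 0.0498, adjusted p = 0.192). Its r was -0.563 with Tsc22d3, -0.515 with Pdk4, -0.409 with Sgk1 and -0.170 with Fkbp5, but 0.118 with Zbtb16. Without impaired mouse 2 and intact mouse 3, the mice farthest from its median, r was negative only with Pdk4 (-0.287) and Nfkbia (-0.190). How often other genes correlate negatively with the 6 induced genes was not tested.

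**Figure D3:**
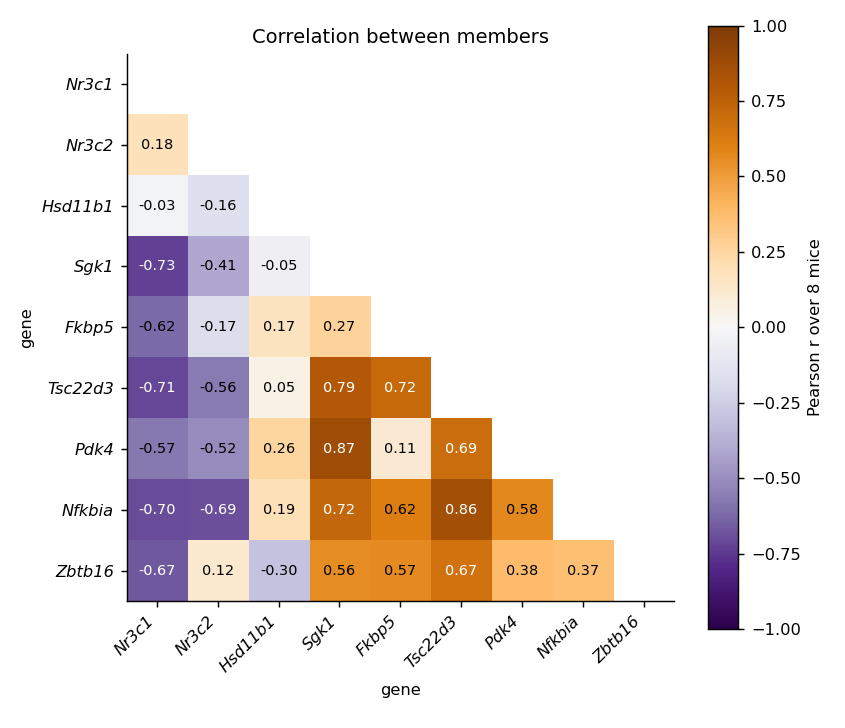
Pearson correlation over the 8 mice for each pair of the 9 members (colour and printed value; both axes list genes). The block of induced genes in the lower right is positive throughout, from 0.112 to 0.868, and the Nr3c1 column is negative against all 6 of them. The Nr3c2 column is negative against all of them but Zbtb16.

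The genes most like 3 of the members over the 8 arrays were looked up among all genes tested, leaving out predicted genes. For Nr3c1 they were Stat6 (r = 0.961), a transcription factor of interleukin signalling, Nedd8 (0.957), a ubiquitin-like modifier, and Myd88 (0.953), the adaptor of Toll-like receptors. For Nr3c2 they were Shisa6 (0.963), an auxiliary protein of AMPA receptors, Gatad2b (0.955), a subunit of a chromatin-remodelling complex, and Ankrd33 (0.938). For Sgk1 they were Dctn6 (0.954), a dynactin subunit, Gpc5 (0.952), a heparan sulfate proteoglycan, and Swsap1 (0.933). Each was picked for its high r among the genes tested, on only 8 arrays, so the values are a description. For these 9 genes, r without the 2 mice farthest from the median of the member ran from 0.841 to 0.969.

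Other genes known to be induced by glucocorticoids were mostly higher in the impaired group as well, though none passed the test. Of 27 listed, 25 were on the array with a name and 23 were bright enough to be tested. Of these 23, 21 had a higher mean in the impaired group, against 47.1% of all genes tested. The count stayed between 20 and 23 under every alternative processing tried. Some of these, such as another prior or a replicate block, could not change it. The median difference of the 23 was 0.16, against -0.0083 for all genes tested, and single differences ran from -0.051 to 0.37. None passed at an adjusted p under 0.05 (limma), 2 had an unadjusted p under 0.05, and the groups did not overlap for 1, Per1. The list was chosen with earlier results of these mice known, so its direction is not independent evidence.

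Per1, a clock gene that glucocorticoids induce, stood at 9.27, 8.99, 9.03 and 9.16 in the impaired mice and at 8.65, 8.92, 8.90 and 8.97 in the intact mice. Every impaired mouse was above every intact mouse, and impaired mouse 1, low in the 6 induced members, was the highest. The difference was 0.26 (standard error 0.099; limma, unadjusted p = 0.0256, adjusted p = 0.961). For Per1 it was 0.19 without intact mouse 1, its lowest mouse, and 0.18 with the immediate early list mean, described below, as a covariate. Angptl4, an inhibitor of lipoprotein lipase, differed by 0.36 (standard error 0.16; limma, unadjusted p = 0.0429, adjusted p = 0.961), with 6.85 in impaired mouse 1 and 7.16 to 7.34 in the other impaired mice against 6.34 to 7.04 in the intact mice. Without intact mouse 2, its lowest mouse, the difference of Angptl4 was 0.21. The 2 genes with a lower mean in the impaired group were Bcl6, a transcriptional repressor, at -0.051, and Gpd1, a glycerol phosphate dehydrogenase, at -0.028. Impaired mouse 2 had 19 of the 23 genes above their mean over all mice, and impaired mice 3 and 4 had 15 and 18. Impaired mouse 1 had 5, and the intact mice had 2 to 9. By mean deviation, impaired mice 2, 3 and 4 and intact mouse 4 were the highest mice, in this order, on both lists, and intact mouse 2 was the lowest.

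**Figure D4:**
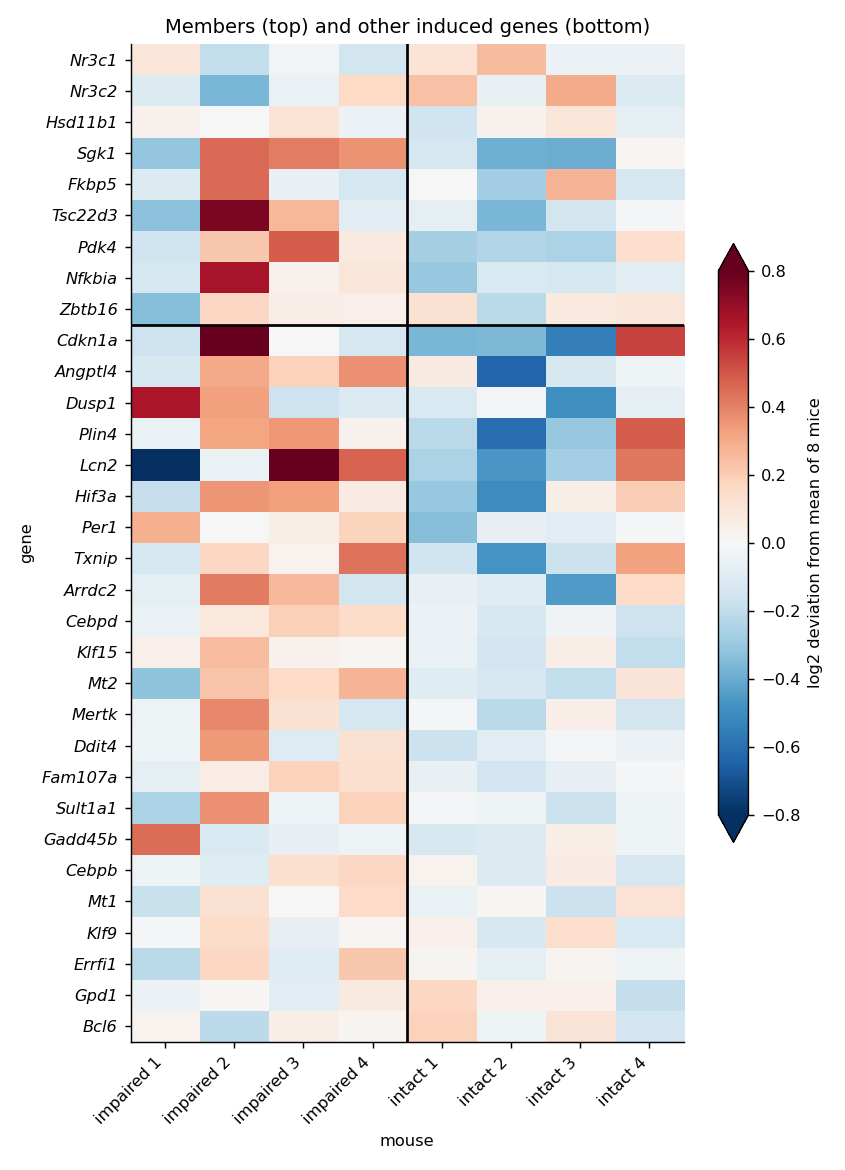
Log2 deviation from the mean of the 8 mice (colour, cut off at 0.8 on either side) for the 9 members, above the horizontal line, and 23 other induced genes, below it, with impaired mice left and intact mice right of the vertical line. Impaired mouse 2 is high in most rows and impaired mouse 1 resembles the intact mice in most.

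Genes of proteins that fold the receptors and pass on their signal had median differences smaller in size than the 0.16 of the other induced genes. Single genes, such as Bag1, differed by more. Of 9 chaperones and co-chaperones tested, 4 had higher and 5 lower means in the impaired group, with a median difference of -0.054. Bag1, a co-chaperone that limits receptor activity, differed by -0.24 (standard error 0.11; limma, unadjusted p = 0.0479, adjusted p = 0.961), and Hspa4, a heat shock protein, by -0.17 (standard error 0.094), or -0.11 without intact mouse 1. Of 10 coactivators and corepressors, 8 had lower means (median -0.057), with Med14 and Med1, subunits of the Mediator complex, at -0.13 and -0.15. Med1 was -0.069 without intact mouse 1 and -0.22 without intact mouse 4. Of 6 genes of steroid metabolism and export tested, 5 had lower means. Star, the carrier of cholesterol into mitochondria, was at -0.23 and near the lower limit of testing. Abcb1a, a pump that exports some steroids, was at -0.12. Leaving out a mouse moved Star between -0.38 (intact mouse 4) and -0.11 (impaired mouse 3), and Abcb1a between -0.20 (impaired mouse 3) and -0.069 (impaired mouse 1). The steroid receptors Pgr and Esr1, for progesterone and oestrogen, differed by 0.050 and 0.023, and neither kept its sign when single mice were left out.

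Upstream of the adrenal, 2 of 6 tested genes of corticotropin-releasing hormone and vasopressin signalling had higher means. Crh, the hypothalamic releasing hormone that hippocampal interneurons also make, stood at 7.09, 6.99, 6.85 and 6.88 in the impaired mice and at 6.81, 6.59, 6.80 and 6.89 in the intact mice. Intact mouse 4 was inside the impaired range, and the difference was 0.18 (standard error 0.093; limma, adjusted p = 0.961). Avp, vasopressin, differed by -0.26 (standard error 0.15), and by -0.11 without impaired mouse 3.

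Close relatives and partners of the induced members did not share their direction throughout. Among 9 genes around the SGK kinases, 5 had higher means, and 6 had when arrays were centred on their median or quantile normalized again. Sgk2 differed by 0.23 (standard error 0.13) at levels of 5.30 to 6.11, below the 75th percentile of the intron controls (6.30), and Nedd4l, a ubiquitin ligase that SGK kinases phosphorylate, by -0.11 (standard error 0.11). Sgk2 was 0.13 without impaired mouse 4, and Nedd4l was -0.038 without impaired mouse 1 and -0.18 without impaired mouse 4. Among 9 genes of pyruvate dehydrogenase and its regulators, 4 had higher and 5 lower means. The kinase Pdk3 differed by -0.17 (standard error 0.11), and by -0.098 without impaired mouse 3. For the kinase Pdk2 the difference was -0.11 (standard error 0.080), and each impaired mouse, at 10.86 to 11.10, was just below each intact mouse, at 11.10 to 11.17. Without impaired mouse 3, its lowest mouse, the difference of Pdk2 was -0.054. All 3 relatives of Tsc22d3 had lower means, 2 of them after a second quantile normalization, with Tsc22d4 at -0.085 and Tsc22d2 at -0.060. Leaving out a mouse moved Tsc22d4 between -0.14 (intact mouse 3) and -0.030 (intact mouse 4), and Tsc22d2 between -0.10 (intact mouse 4) and -0.0083 (intact mouse 1). Of 10 genes of NF-kB subunits, inhibitors and kinases, 6 had higher means (median 0.021), with Relb at 0.18 (standard error 0.097) and Rel at -0.14 (standard error 0.14). Rel was -0.049 without impaired mouse 2 and -0.26 without intact mouse 4. No gene of these receptor, hormone, kinase and NF-kB lists passed at an adjusted p under 0.05 (limma).

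**Figure D5:**
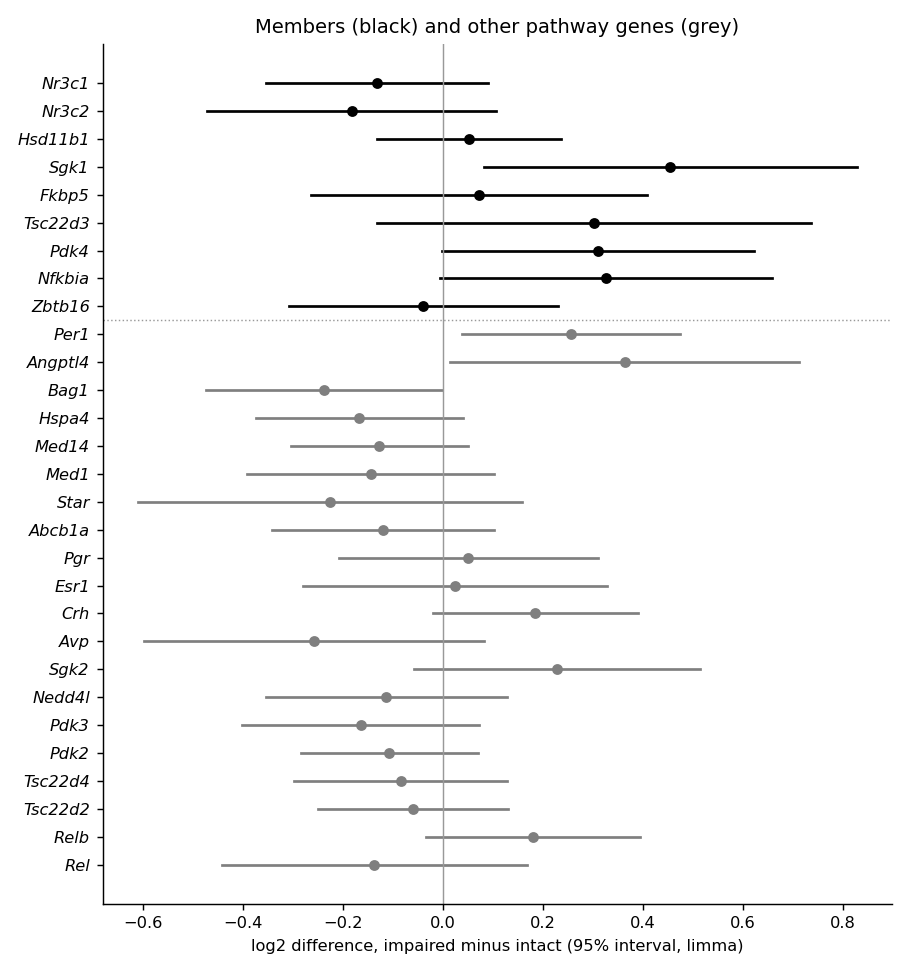
Log2 difference, impaired minus intact, with its 95% interval (horizontal axis) for the 9 members (black) and 20 other genes of the pathway (grey; vertical axis lists genes). The intervals of Sgk1, Per1 and Angptl4 lie above 0 and that of Bag1 below it, before adjustment for the number of genes.

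Markers of the labelled tissue were detected, and markers of bordering tissue varied between mice. All 4 markers of CA1 neurons and all 5 of dentate granule cells that were tested lay above the 75th percentile of the intron controls, while 1 further dentate marker was too dim to be tested. Array medians over the genes tested were 7.75 to 7.79, and every member was above that intron level, 6 of them above its 95th percentile (7.92); Nr3c1, Pdk4 and Nfkbia were not. All 5 thalamus markers had higher means in the impaired group, with list means of 8.84 to 9.65 in the impaired mice. The list means of intact mice 1 to 4 were 8.81, 9.50, 7.30 and 9.59, so intact mouse 3 alone lay far below the impaired range. All 9 choroid plexus markers had lower means in the impaired group (7.03 to 8.48 against 7.11 to 9.18), as had all 6 oligodendrocyte markers (9.55 to 9.996 against 9.56 to 10.22). Of 8 immediate early genes tested 7 had higher means, 8 after a second quantile normalization, and their list mean was 8.38 in impaired mouse 1 and at most 7.75 in the other mice. All 5 endothelial markers had lower means in the impaired group (7.68 to 7.93 against 7.85 to 8.02), and 6 of 7 meningeal markers had higher means (8.08 to 8.37 against 7.88 to 8.15), 7 after a second quantile normalization. Of 5 erythrocyte markers 1 was on the array with a name, Alas2, an enzyme of haem synthesis, which was lower in each impaired mouse, at 6.39 to 6.92, than in each intact mouse, at 7.02 to 7.16. Its difference was -0.41 (standard error 0.11; limma, unadjusted p = 0.00338, adjusted p = 0.961). The part of the endothelial, meningeal and erythrocyte markers in the differences of the members was not tested.

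With the thalamus, choroid plexus, oligodendrocyte or immediate early list mean as a covariate, the difference of Sgk1 was 0.37 (thalamus), 0.44 (choroid plexus), 0.56 (oligodendrocytes) and 0.64 (immediate early genes). Pdk4 gave 0.23, 0.25, 0.40 and 0.41 in the same order, Nfkbia 0.29, 0.29, 0.36 and 0.41, and Tsc22d3 0.25, 0.23, 0.34 and 0.48. All of these kept the higher mean of the impaired group, and none passed at an adjusted p under 0.05 (limma). The difference of Nr3c1 ran from -0.18 to -0.099 in these fits and that of Nr3c2 from -0.24 to -0.099. The fits with oligodendrocyte markers and immediate early genes were added after the data were seen. The immediate early list mean stood out in impaired mouse 1 alone (8.38, at most 7.75 elsewhere). Its fit was thus close to leaving that mouse out, which gave 0.63 for Sgk1, 0.41 for Pdk4, 0.43 for Nfkbia and 0.46 for Tsc22d3. The thalamus list mean stood apart in intact mouse 3, at 7.30 against 8.81 to 9.65 in the other mice. Neither fit can tell its markers apart from a single mouse.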

How the data were processed

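Hippocampal RNA of 8 mice was hybridised to 1-colour Affymetrix arrays after amplification from 1 ng with the WT Pico kit, per the labels' protocols. RMA gave the deposited log2 values, 1 per probe set and array, per the submitters' processing notes. Its quantile step makes arrays alike and its background step shrinks differences of dim genes. The software version, annotation and build: not given in the sources used here.

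Of 22206 target probe sets, 19572 had a gene symbol in the platform table and 2634 were not listed and went unnamed. The brightest probe set stood for a gene (55 genes had several). For each gene a moderated linear model (limma 3.58.1, R 4.3.3) was fitted, two-sided, with Benjamini-Hochberg adjustment over 14628 genes and a threshold of 0.05. The procedure was tested on simulated data. Permutation tests ran in Python 3.11.15. Each title names a separate biological replicate. Their number limits the precision, and the median standard error was 0.10. Scan batches were not used here.

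The members and lists were chosen with earlier results of these data known. Named were all members, the 2 genes of each pathway list with the smallest p, and the 3 genes most correlated with each of Nr3c1, Nr3c2 and Sgk1. Bcl6, Gpd1, Acnat2 and Gm35041 were named after their values or matches were seen. The titles do not say that same-numbered mice are paired. Such mice deviated from their group means with correlations of -0.10 to 0.033, a check that cannot exclude a weak pairing. Alternatives covered the filter, prior, normalization, probe sets, block, weights, covariates and each mouse left out. Sequences are from RefSeq, assembly GRCm38.p6.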

Additional observations from a re-analysis of the deposited data

Results flagged for a closer look

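In groups of 4 mice, the highest or lowest mouse was flagged where its gap to the next passed Dixon's 95% critical value. Of 60 groups checked, for the 29 genes given above and the receptor balance, 7 were flagged, where chance flags about 1 in 20.

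Among the members, Sgk1 was lowest in impaired mouse 1, at 8.76 against 9.43 to 9.52 in the other impaired mice. Fkbp5 was highest in impaired mouse 2, at 9.79 against 9.20 to 9.28. Pdk4 was highest in intact mouse 4, at 8.05 against 7.65 to 7.69 in the other intact mice, and Zbtb16 was lowest in intact mouse 2, at 9.99 against 10.28 to 10.32.

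Among the other pathway genes, Bag1 was highest in intact mouse 2, at 8.50 against 8.27 to 8.30. Sgk2 was highest in impaired mouse 4, at 6.11 against 5.68 to 5.73. Pdk2 was lowest in impaired mouse 3, at 10.86 against 11.06 to 11.10.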

How the results depend on the processing

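Sgk1, Tsc22d3, Pdk4, Nfkbia, Hsd11b1, Nr3c1 and Nr3c2 kept the sign of their difference in all 20 alternatives, and no member passed an adjusted p of 0.05 in any (limma, adjusted p from 0.743 to 1.00 for Sgk1). Over these alternatives Sgk1 ran from 0.37 to 0.64, Nfkbia from 0.16 to 0.43, Pdk4 from 0.20 to 0.41 and Tsc22d3 from 0.10 to 0.48. Changes of filter, prior, probe sets and block could not alter a member's difference, only its standard error and p. Only the other alternatives thus bear on the signs of the members. Of all genes tested 0 passed, and 1, Scg5, did with an intensity trend and robust prior. Fkbp5 reversed to -0.016 with the choroid plexus covariate and -0.00048 with the oligodendrocyte covariate, and Zbtb16 to 0.075 with the immediate early covariate. Esr1 reversed to -0.037 and -0.074 with the plexus and oligodendrocyte covariates, and Pgr to -0.0061 and -0.026 with the oligodendrocyte and immediate early covariates. With a mouse left out, Fkbp5 ran from -0.067 to 0.17, Zbtb16 from -0.12 to 0.067, Pgr from -0.031 to 0.15, Esr1 from -0.11 to 0.14 and the receptor balance from -0.16 to 0.056. The cause of these reversals was not tested. With the replicate number as a block, Sgk1 differed by 0.45 and the receptor balance by -0.051 (exact sign-flip permutation p = 0.875), 0 genes passed, and no call of a member changed. Each replicate number holds 1 mouse of each group, so the block could not change these differences, only their error and p. Star, Sgk2 and Relb fell below the filter in some alternatives and have no value there. Signal over background limits Sgk2, Relb and Star, whose means lay below the 75th percentile of the intron controls.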

Other observations

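Among the other induced genes, Dusp1 and Cdkn1a, picked here after their values were seen, were high in different impaired mice. Dusp1, a phosphatase that switches off MAP kinases, stood at 10.41, 10.09, 9.59 and 9.65 in the impaired mice and at 9.64, 9.75, 9.27 and 9.68 in the intact mice. Impaired mouse 1, which had none of the 6 induced members above their mean, was its highest mouse, as it was for Per1. The immediate early list mean was also highest in that mouse, at 8.38 against at most 7.75 elsewhere. A link of Dusp1 and Per1 with it was not tested. The difference of Dusp1 was 0.35 (standard error 0.18; limma, adjusted p = 0.961). Cdkn1a, an inhibitor of the cell cycle, reached 9.64 in impaired mouse 2, its highest value, against 8.43 to 8.59 in the other impaired mice. Intact mouse 4 followed with 9.14, and the difference of Cdkn1a was 0.37 (standard error 0.29; limma, adjusted p = 0.961).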
